A study of Mus musculus with 4 samples.

Results

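The insulin, FOXO and mTOR signalling genes described here are 10 genes chosen by name: Igf1r, Insr, Irs1, Irs2, Foxo1, Foxo3, Mtor, Rptor, Rictor and Tsc1. They were read from a table of 52459 genes, and all 10 were detected and passed the filter on low counts that left 13692 genes for testing. The table holds full-length RNA sequencing of small intestinal stem cells (ISCs) from mice of 2 and 22 months. The question asked of these genes was whether their RNA level in ISCs differed between the ages.

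All 4 libraries came from wild-type C57/Bl6 mice, and no treatment is named for any of them. Each library was made from cells pooled from 5 animals, with 2 pools of 2 months (ISC_2mth) and 2 pools of 22 months (ISC_22mth), and different animals stand behind every pool. The ISCs were sorted from dissociated crypts by surface proteins (the SM6 strategy), as cells negative for CD31 and CD45, positive for EPCAM and CD166, intermediate for CD24, high for CD44 and EPHB2, and low for GRP78. RNA was amplified by SPIA, a linear isothermal method, and sequenced single-end.

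Insulin and insulin-like growth factors bind the receptor tyrosine kinases INSR and IGF1R, which pass the signal through the docking proteins IRS1 and IRS2 to PI3 kinase and AKT. Active AKT keeps the FOXO transcription factors out of the nucleus and relieves the block that the TSC complex holds on mTOR complex 1 (mTORC1), a kinase complex that promotes protein synthesis and growth when nutrients are plentiful. This pathway is one of the best known modifiers of lifespan in animals, and in the intestinal crypt it links nutrient supply to the work of stem cells and of their Paneth cell neighbours.

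Of the 10 genes, Igf1r was lower at 22 months by an FDR under 0.05 in edgeR's quasi-likelihood test, with a level 0.675 times that at 2 months. Tsc1 and Rptor came next, with levels 0.711 and 0.717 times those at 2 months, and neither passed the adjusted threshold. The other 7 genes, among them the insulin receptor Insr, both FOXO factors and Mtor itself, had an FDR of 0.397 or more. The call of 1 in 10 genes (10.0%) stands beside 2.26% of all genes tested in either direction, with 1.63% called higher and 0.628% called lower. An unadjusted p under 0.05 was reached by 3 of the 10 genes (30.0%), against 16.9% of all genes. The 10 genes were chosen with earlier results of these data known, so these shares are a description and cannot show an excess.

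The libraries held 11662654 to 15975698 counts, of which 62.6% and 65.7% at 2 months and 73.8% and 72.9% at 22 months fell on mitochondrially encoded genes, leaving 3852178 to 4593004 counts for all others. All 8 stem cell markers, Lgr5 and Olfm4 among them, passed the filter and none was called, with summed levels of 2709 to 2870 CPM (counts scaled to a common library size) at 2 months and 2697 to 2918 at 22 months. The sum is carried by abundant genes such as Olfm4, and single markers had values in both directions, with Axin2 at a log2 fold change of -0.46 (adjusted p = 0.0511 in edgeR), Sox9 at -0.28 and Ascl2 at 0.33. Of the 6 sorting markers 1, Cd24a, was called higher, with summed levels of 1127 and 1085 CPM at 2 months and 1258 and 1341 at 22 months. Ephb2, another of them, had 855 and 778 reads at 2 months and 470 and 509 at 22 months (log2 fold change -0.52, adjusted p = 0.0576 in edgeR). Some markers of other cells were higher at 22 months. Of 8 enterocyte markers, 3 were called higher (summed level 388 and 519 CPM at 2 months, 880 and 804 at 22 months), and of 6 Paneth cell markers 2 were called higher (925 and 715 CPM, then 2062 and 800, so that the second old pool lay between the young ones). Of 10 leukocyte markers 1, Itgam, was called higher and made up nearly all of the sum (148, 196, 254 and 252 reads), while Ptprc, which encodes the CD45 of the sort, had 0, 0, 2 and 0 reads. The list had summed levels of 10.8 and 13.5 CPM at 2 months, 20.6 and 21.3 at 22 months, and Cd79a, Itgax and Adgre1 at 0 in every library. Among 6 tuft cell markers 1 was called higher, with summed levels of 3.24 to 4.97 CPM at 2 months and 5.32 to 9.53 at 22 months, and Il25 at 0. None of the 6 goblet, 6 enteroendocrine, 5 endothelial and 7 stromal and muscle markers was called. Summed goblet markers were 1847 and 2440 CPM at 2 months and 2503 and 1970 at 22 months, and enteroendocrine markers 25.3 and 125, then 110 and 73.5 CPM. Endothelial and stromal sums stayed at or under 1.26 CPM, with Cdh5, Kdr, Col1a2, Col3a1, Pdgfra and Des at 0. The part of the mitochondrial share and of these other cells in the differences given here was not tested.

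Igf1r (ENSMUSG00000005533.10, chr7:67952827-68233668, plus strand of GRCm38, protein coding) encodes the receptor for insulin-like growth factors. It had 1183 and 1178 reads in the pools of 2 months and 698 and 671 reads in those of 22 months. After TMM normalization this was 81.6 and 78.1 CPM at 2 months, and 52.8 and 55.0 CPM at 22 months. Both old pools lay well below both young pools, and the gap between the ages was many times the gap within either. The mean went from 79.8 ± 2.52 to 53.9 ± 1.51 CPM (SD, n = 2 pools each).

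The log2 fold change of Igf1r was -0.57 (SE 0.12, 95% interval -0.83 to -0.31), with an adjusted p of 0.0200 by edgeR's quasi-likelihood test. It ranked at position 137 of the 13692 genes by p. The p-values measure only the spread between pools, and in bulk RNA fewer cells of a type and less RNA per cell cannot be told apart. The gene was called in 9 of 10 other analyses of all 4 pools, the exception being offsets for GC content and length (log2 fold change -0.48, adjusted p = 0.0599 in edgeR). It was not called without the first pool of 2 months (log2 fold change -0.53, adjusted p = 0.147 in edgeR).

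**Figure D1:**
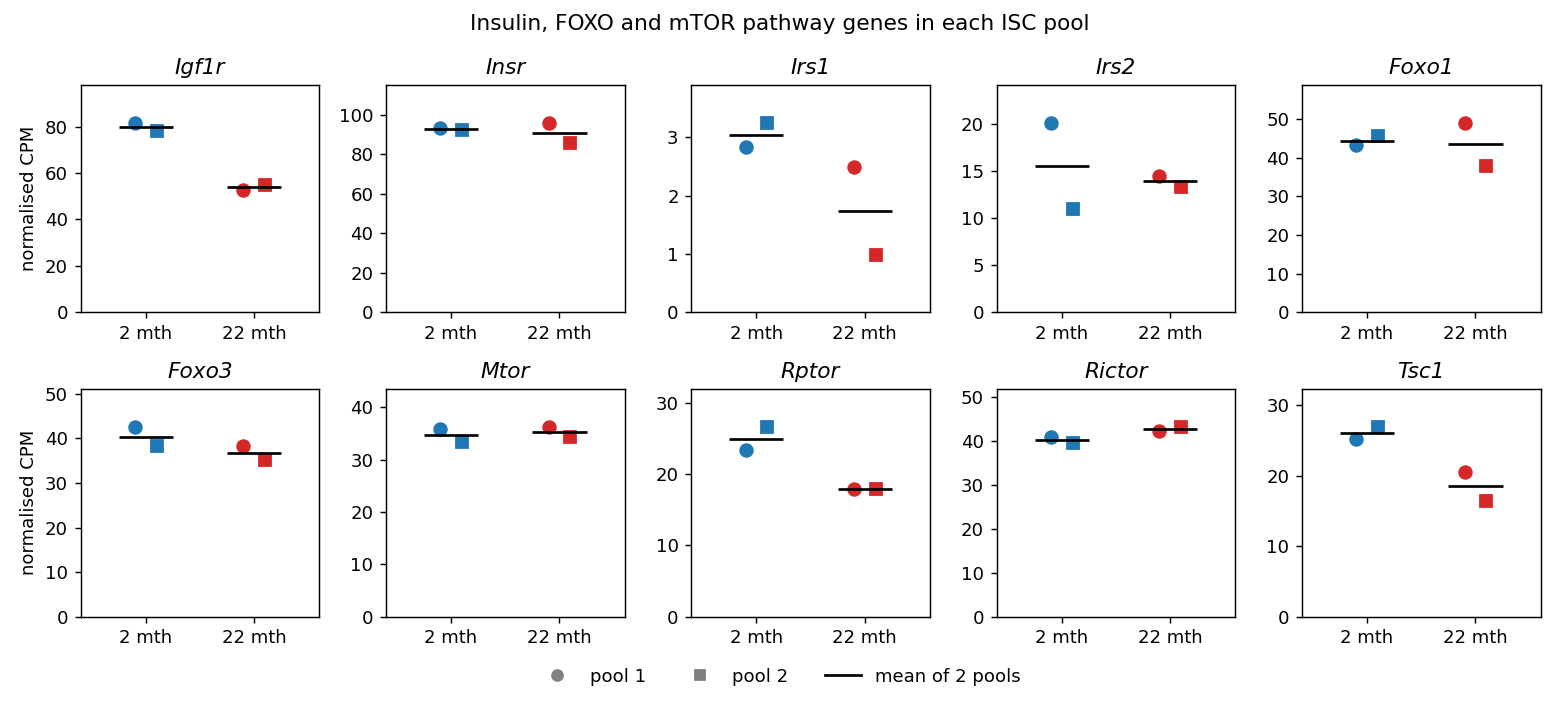
Normalised CPM (vertical axes, each from 0) of the 10 genes in the 2 pools of 2 months (blue) and the 2 pools of 22 months (red), with circles for pool 1, squares for pool 2 and a bar for the mean. The old pools of Igf1r sit at 52.8 and 55.0 CPM, below the young pools at 81.6 and 78.1, whereas the ages overlap for Insr, Irs2, Foxo1 and Mtor.

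The sequence before the transcription start of Igf1r is shown because it is the gene of the 10 that passed the test. The start of a window of Bcl2l11 is shown because it is a FOXO target gene, described further on, that was also lower at 22 months. The Bcl2l11 window was picked because it holds the motif marked below. Both were taken from RefSeq's promoter table for GRCm38.p6, 5′ to 3′ on the plus strand. The Igf1r stretch is chr7:67952007-67952256, the 250 bases before RefSeq's start (which lies upstream of the GENCODE start given above), with a GC content of 77.6%, and the Bcl2l11 stretch is chr2:128125788-128125847, the first 60 bases of its window. Capitals mark GTAAACA, the core letters that FOXO and other forkhead factors are known to bind.
Igf1r: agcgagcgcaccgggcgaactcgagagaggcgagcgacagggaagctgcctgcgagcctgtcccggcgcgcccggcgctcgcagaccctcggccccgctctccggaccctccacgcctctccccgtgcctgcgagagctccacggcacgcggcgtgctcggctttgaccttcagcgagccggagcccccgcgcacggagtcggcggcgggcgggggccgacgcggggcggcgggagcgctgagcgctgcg
Bcl2l11: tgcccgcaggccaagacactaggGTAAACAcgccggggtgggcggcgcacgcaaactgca

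GTAAACA was searched on both strands in windows of 300 bases, 250 before and 50 after each start. It occurred in 3.65% of all 32851 windows, belonging to 4.05% of 27025 genes. Of the 10 genes, 9 had a window and 0 of these held the motif. Among the FOXO target genes listed, 4 of the 16 with a window held it, namely Bcl2l11, Sesn1, Trim63 and Txnip. A match describes letters in a window, not a bound site.

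Insr (chr8:3122061-3279617, minus strand) encodes the insulin receptor, the closest relative of Igf1r. It had 1354 and 1391 reads at 2 months and 1269 and 1048 reads at 22 months, or 93.4, 92.2, 96.0 and 85.8 CPM. The pools of the ages overlapped. Its log2 fold change was -0.03 with a 95% interval of -0.28 to 0.23 (adjusted p = 0.932 in edgeR).

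Within each library the reads of Igf1r could be set against those of Insr, a ratio that does not depend on how the libraries are scaled. It was 0.874 and 0.847 at 2 months and 0.550 and 0.640 at 22 months. Both old pools were lower, and the log2 difference was -0.54. With 2 pools against 2, an exact permutation test cannot give a two-sided p under 0.333, so ratios are given without a test.

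Irs1 and Irs2 encode the docking proteins that carry the signal from both receptors to PI3 kinase. Irs1 (chr1:82233101-82291416, minus strand) was the scarcest of the 10 genes, with 41 and 49 reads at 2 months and 33 and 12 reads at 22 months. Both old pools were lower, and the second stood far below the first. This gave a log2 fold change of -0.79 with a wide 95% interval of -1.74 to 0.16 (adjusted p = 0.397 in edgeR). It ranged from -1.62 to -0.28 as each pool was left out. Over 2822 bp its exons overlap Gm9747 on the opposite strand, and 30.5% of its 50-nt stretches recur there, so its counts are uncertain where reads could be split. Gm9747 had 0 reads in every library. The strand setting of the counting was not given in the sources used here, so this does not show whether reads of Irs1 were lost there.

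Irs2 (chr8:10984681-11008458, minus strand) had 292 and 166 reads at 2 months and 192 and 163 reads at 22 months, or 20.2, 11.0, 14.5 and 13.4 CPM. The young pools differed from each other by more than the old ones, and the ages overlapped. The log2 fold change was -0.16 with a 95% interval of -0.64 to 0.32 (adjusted p = 0.783 in edgeR). Without the first pool of 2 months it was 0.34, and without the second -0.53. The ratio of Irs2 to Irs1 reads was 7.12 and 3.39 at 2 months and 5.82 and 13.6 at 22 months, without separation of the ages.

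Foxo1 and Foxo3 encode transcription factors that act when insulin signalling is low and switch on genes of stress resistance, cell cycle arrest and apoptosis. Foxo1 (chr3:52268336-52353221, plus strand) had 625 and 689 reads at 2 months and 647 and 463 reads at 22 months, or 43.1, 45.7, 49.0 and 37.9 CPM. The old pools enclosed the young ones. Its log2 fold change was -0.03 with a 95% interval of -0.33 to 0.27 (adjusted p = 0.942 in edgeR). An antisense gene, Gm20402, overlaps 674 bp of its exons and had 0 reads in every library. With the strand setting unknown, this does not show whether reads of Foxo1 were lost there.

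Foxo3 (chr10:42181841-42276755, minus strand) had 617 and 578 reads at 2 months and 505 and 430 reads at 22 months, or 42.6, 38.3, 38.2 and 35.2 CPM. Both old pools were lower, the first by a margin far smaller than the gap between the young pools. A log2 fold change of -0.14 was estimated, with a 95% interval of -0.43 to 0.15 (adjusted p = 0.658 in edgeR). It was -0.0198 with offsets for GC content and length, and with a pool left out it ranged from -0.22 (without the second pool of 2 months) to -0.0599 (without the first). The ratio of Foxo1 to Foxo3 reads was 1.01 and 1.19 at 2 months and 1.28 and 1.08 at 22 months, so the ages overlapped.

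Mtor encodes the kinase shared by mTORC1 and mTORC2, Rptor the Raptor subunit that brings substrates to mTORC1, and Rictor the subunit that defines mTORC2, which phosphorylates AKT. Mtor (chr4:148448611-148557683, plus strand) had 520 and 504 reads at 2 months and 479 and 420 reads at 22 months, or 35.9, 33.4, 36.3 and 34.4 CPM. The ages overlapped. Its log2 fold change was 0.03 with a 95% interval of -0.26 to 0.32 (adjusted p = 0.942 in edgeR), and it was -0.47 when libraries were scaled to total counts and 0.18 with offsets for GC content and length.

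Rptor (chr11:119602905-119899576, plus strand) had 339 and 402 reads at 2 months and 237 and 219 reads at 22 months. In normalised units these were 23.4 and 26.6 CPM, then 17.9 CPM in both old pools. The old pools lay below the young ones by more than the young pools differed. Its log2 fold change was -0.48 (SE 0.16, 95% interval -0.82 to -0.14), with an adjusted p of 0.128 in edgeR. With offsets for GC content and length it was -0.26, with an adjusted p of 0.491 in edgeR. The gene shares 84 bp of exon with the antisense gene Rptoros, and the strand setting of the counting was not given in the sources used here.

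Rictor (chr15:6708379-6800401, plus strand) had 592 and 597 reads at 2 months and 558 and 526 reads at 22 months, or 40.8, 39.6, 42.2 and 43.1 CPM. Both old pools were slightly above both young pools on this scale. The log2 fold change was 0.09 with a 95% interval of -0.19 to 0.36 (adjusted p = 0.800 in edgeR), and it was -0.41 with total counts. The ratio of Rictor to Rptor reads, each per kb of merged exons, was 1.39 and 1.18 at 2 months and 1.87 and 1.91 at 22 months. It was higher in both old pools, by 0.56 on the log2 scale. The ratio holds no offset for GC content, which was 42.5% for Rictor and 56.5% for Rptor in the longest transcript. With offsets for GC content and length the log2 fold changes were 0.07 for Rictor and -0.26 for Rptor.

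Tsc1 (chr2:28641228-28691167, plus strand) encodes hamartin, which with tuberin (Tsc2) forms the complex that holds mTORC1 off by acting on the small GTPase RHEB. It had 365 and 406 reads at 2 months and 271 and 201 reads at 22 months, or 25.2, 26.9, 20.5 and 16.5 CPM. Both old pools were lower, the second more so. Between the ages it had a log2 fold change of -0.49 (SE 0.16, 95% interval -0.84 to -0.15), with an adjusted p of 0.127 in edgeR. It passed the threshold without the first pool of 22 months (-0.66, adjusted p = 0.0251 in edgeR) and did not without the second (-0.34, adjusted p = 0.329 in edgeR). The ratio of Tsc1 to Tsc2 reads was 1.06 and 1.23 at 2 months and 1.05 and 0.794 at 22 months, so that the ages were only just apart.

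**Figure D2:**
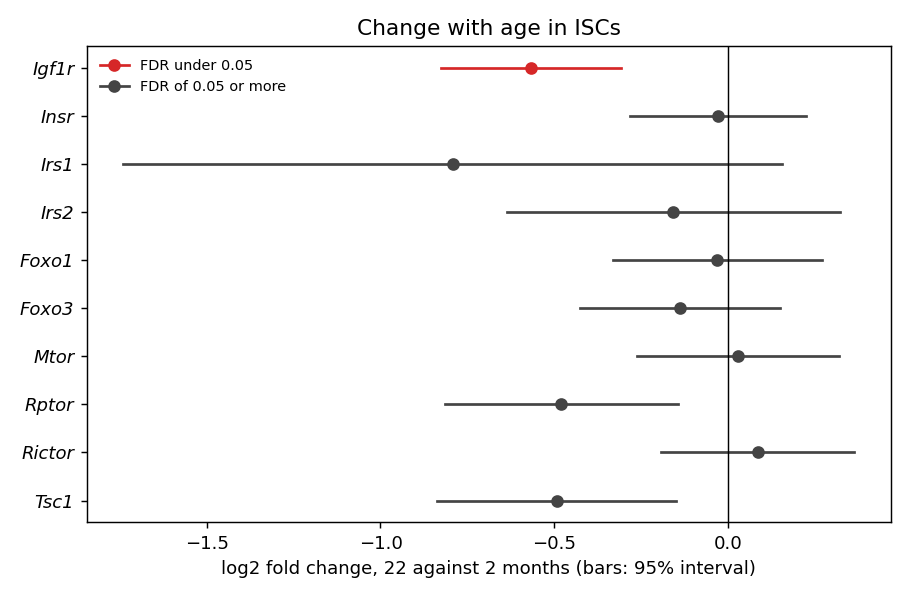
Log2 fold change of the 10 genes at 22 against 2 months (horizontal axis) from edgeR's quasi-likelihood test with TMM normalization, with 95% intervals as bars and an FDR under 0.05 in red. Igf1r, Rptor and Tsc1 have intervals below 0 and only Igf1r has an FDR under 0.05, whereas Mtor and Rictor have points just above 0 that lie at -0.47 and -0.41 when libraries are scaled to total counts.

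Across the 10 genes, 8 had a lower and 2 a higher value at 22 months, and their median log2 fold change was -0.15 against -0.0049 over all genes. With total counts all 10 were lower and called, while 4650 of all 13692 genes were called, 4554 of them lower, and the median of all genes moved to -0.50. The pools of the ages did not overlap in 6 of the 10 genes, against 47.6% of all genes. In 5 of these both old pools were below (23.6% of all genes) and in 1, Rictor, above (24.0% of all genes). The share on the lower side stands above that of all genes. However, the 10 genes were chosen by name with earlier results of these data known, so these counts are a description.

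**Figure D3:**
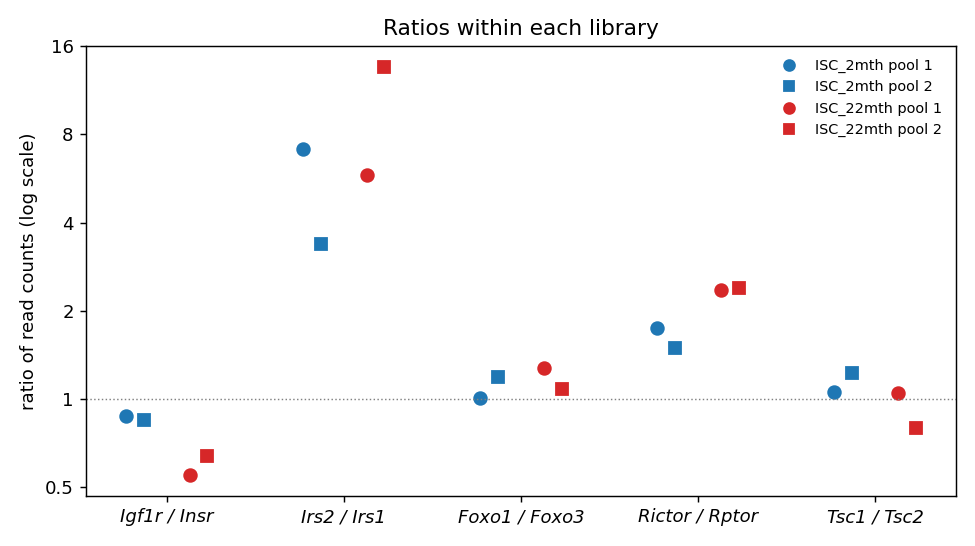
Ratio of read counts (vertical axis, log scale) of 5 pairs of genes in each of the 4 pools, blue for 2 months, red for 22 months, circles for pool 1 and squares for pool 2. The ages are apart for Igf1r over Insr (0.550 and 0.640 at 22 months, 0.847 and 0.874 at 2 months) and for Rictor over Rptor, nearly touch for Tsc1 over Tsc2, and overlap for the other pairs.

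Levels of different genes were compared as CPM per kb of merged exons, averaged over all 4 pools. Insr was highest at 6.68 CPM per kb, at percentile 82.1 of 13236 genes with a length. Foxo3 (5.10) and Foxo1 (5.07) followed and could not be separated, since Foxo1 varied between 4.38 and 5.65 CPM per kb among the pools. Igf1r had 3.98 CPM per kb in the mean, with 4.75 ± 0.150 at 2 months and 3.21 ± 0.0899 at 22 months (SD, n = 2 pools each). At 2 months it thus lay above Mtor (3.43 ± 0.173) and at 22 months below it (3.49 ± 0.129), but by the longest transcript it lay above Mtor at both ages (4.63 to 7.15 CPM per kb among the pools, against 3.90 to 4.23).

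Rictor (2.45 CPM per kb) and Irs2 (2.33) were next and overlapped between pools, and Tsc1 (1.88) and Rptor (1.59) did so too. Irs1 was last at 0.261 CPM per kb, at percentile 6.46, with counts that are uncertain over its overlap with Gm9747. By the longest transcript in place of merged exons, Insr stayed first (9.82 CPM per kb) and Irs1 last (0.261), and Igf1r moved up to position 2 (5.86). The order of the genes between these ends therefore rests on the length used.

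The wider pathway was followed in a list of 137 other genes, grouped by role. Of these, 108 passed the filter and 8 had no read in any library. The test called 3 of the 108 (2.78%), against 2.26% of all genes, and 20 had an unadjusted p under 0.05 (18.5%, against 16.9%). The old pools lay apart from the young ones in 53 (49.1%, against 47.6%). The median log2 fold change was -0.05, and these shares were near those of all genes.

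The 3 called genes were Cat, Bcl2l11 and Ddit4. Cat (chr2:103453849-103485160, minus strand), a FOXO target, encodes catalase, which breaks down hydrogen peroxide. It had 2561 and 2695 reads at 2 months and 3515 and 3485 reads at 22 months, with both old pools far above the young ones. It rose by a log2 fold change of 0.63 (SE 0.11, adjusted p = 0.00455 in edgeR), was called as each pool was left out, and reached 0.14 with an adjusted p of 0.405 in edgeR under total counts.

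Bcl2l11 (chr2:128126038-128162547, plus strand), a FOXO target whose promoter letters are given above, encodes BIM, a protein that triggers apoptosis. It had 294 and 305 reads at 2 months and 173 and 146 reads at 22 months, so that the old pools were lower with little spread in either age. The log2 fold change was -0.69 (SE 0.17, adjusted p = 0.0410 in edgeR). It was called in 8 of 10 other analyses of all pools and in 1 of the 4 with a pool left out. Those without a call were DESeq2 (adjusted p = 0.116), GC and length offsets (0.0627 in edgeR), and the fits without the first or second pool of 2 months or the second of 22 months, at adjusted p = 0.184, 0.111 and 0.0567 in edgeR. In these 5 analyses the log2 fold change of Bcl2l11 lay between -0.70 and -0.63.

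Ddit4 (chr10:59949669-59951834, minus strand) encodes REDD1, a stress-induced protein that activates the TSC complex and so restrains mTORC1. It had 828 and 812 reads at 2 months and 439 and 511 reads at 22 months, with both old pools below. The log2 fold change was -0.56 (SE 0.14, adjusted p = 0.0405 in edgeR). It was called in 8 of 10 other analyses of all pools, the exceptions being DESeq2 (adjusted p = 0.0567) and GC and length offsets (0.0761 in edgeR). With a pool left out it was called only without the second pool of 22 months, and without the first and second of 2 months and the first of 22 months the adjusted p was 0.215, 0.0536 and 0.113 in edgeR. The log2 fold change of Ddit4 was -0.57 with DESeq2 and -0.50 with the offsets, and -0.52, -0.61 and -0.41 in those 3 fits.

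**Figure D4:**
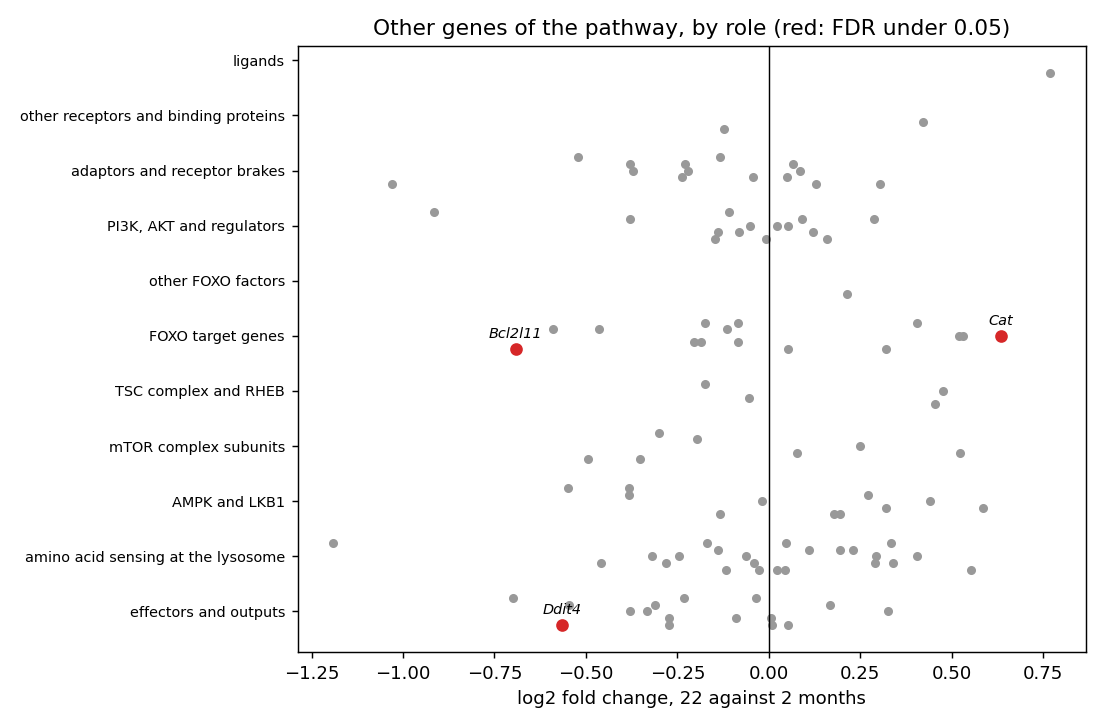
Log2 fold change at 22 against 2 months (horizontal axis) of the 108 tested pathway genes, 1 point per gene, by role (vertical axis), with TMM normalization and red points for an FDR under 0.05. Cat is at 0.63, Bcl2l11 at -0.69 and Ddit4 at -0.56, and the other 105 genes lie on both sides of 0.

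By role, ligands were scarce in these cells. Ins2 and Igf1 had 0 reads in every library, which allows up to 0.199 to 0.246 CPM by 3 counts, an allowance for counting error only, and Ins1 had 1 read in all. Igf2, a ligand of IGF1R, had 30 and 25 reads at 2 months and 46 and 35 reads at 22 months (log2 fold change 0.77, adjusted p = 0.347 in edgeR), and 62.1% of its 50-nt stretches also occur in other genes, so its counts are uncertain. Of 9 further receptors and binding proteins, 2 passed the filter. These were Igfbp4, which binds IGFs outside the cell (0.42, adjusted p = 0.174 in edgeR), and Igf2r, which clears IGF2 (-0.12, adjusted p = 0.698 in edgeR). The insulin receptor-related gene Insrr had 7, 2, 7 and 1 reads and did not pass.

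Of 18 adaptors and receptor brakes, 14 were tested and 0 called, with 2 at an unadjusted p under 0.05. Of these, Ptpn11, the SHP2 phosphatase, had a log2 fold change of -0.37 (adjusted p = 0.249 in edgeR) and Socs2, an inhibitor of cytokine and growth hormone signalling, 0.30 (adjusted p = 0.248 in edgeR). Irs4 had 0 reads. Of 18 genes of PI3 kinase, AKT and their regulators, 14 were tested and 0 called. Pik3ip1, an inhibitor of PI3 kinase, had 103 and 64 reads at 2 months and 32 and 44 at 22 months (-0.91, adjusted p = 0.167 in edgeR). Of the other FOXO factors, Foxo4 had 0.21 (adjusted p = 0.708 in edgeR) and Foxo6, with 2, 9, 3 and 2 reads, did not pass the filter.

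Of 15 FOXO target genes tested, 2 were called (13.3%, 1 higher and 1 lower), against 2.26% of all genes, and 5 had an unadjusted p under 0.05 (33.3%, against 16.9%). The list was chosen with earlier results of these data known, so these shares are a description. Beyond Cat and Bcl2l11, the remaining 13 genes did not pass the test, and the median of the group was -0.08. In this group 9 of 15 genes had ages that did not overlap, against 47.6% of all genes, 5 with the old pools above (24.0% of all genes) and 4 below (23.6%). Values of these targets thus lay in both directions with TMM normalization, while under total counts the median of all genes was -0.50.

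In the TSC complex and RHEB group, 4 of 4 genes were tested and 0 called. Rheb, the GTPase that switches mTORC1 on, had a log2 fold change of 0.45 (adjusted p = 0.175 in edgeR), and Tsc2, with 343 and 329 reads at 2 months and 259 and 253 at 22 months, -0.17 (adjusted p = 0.621 in edgeR). Of 8 further mTOR complex subunits, 7 were tested and 0 called. Tti1, which helps to assemble the mTOR complexes, had 0.52 (adjusted p = 0.112 in edgeR), and Akt1s1, the mTORC1 inhibitor PRAS40, -0.50 (adjusted p = 0.365 in edgeR). Thus no gene of these groups passed the test, and the values of single subunits lay on both sides of 0.

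Of 12 genes of AMPK and LKB1, the energy sensor that restrains mTORC1, 11 were tested and 0 called. Prkaa1, a catalytic subunit, had a log2 fold change of 0.44 (adjusted p = 0.123 in edgeR) and Stk11, which encodes LKB1, -0.38 (adjusted p = 0.315 in edgeR). Of 25 genes of amino acid sensing at the lysosome, 23 were tested and 0 called. Rragc, a Rag GTPase that brings mTORC1 to the lysosome, had 0.55 (adjusted p = 0.201 in edgeR), and the leucine sensor Sesn2 -1.19 on few reads (38, 23, 13 and 10, adjusted p = 0.294 in edgeR). Of 19 effectors and outputs, 16 were tested and Ddit4 alone was called. Eif4ebp2, a translation repressor that mTORC1 inactivates, had -0.31 (adjusted p = 0.195 in edgeR) and Pdcd4, another translation inhibitor, 0.17 (adjusted p = 0.476 in edgeR).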

How the data were processed

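Per the labels and the study's methods, the authors trimmed the single-end reads with Trimmomatic (version 0.30), aligned them with STAR (2.4.2a) to GRCm38, counted reads in exons of GENCODE vM15 genes with featureCounts, and deposited raw counts per gene. The values are whole-number counts, neither normalized nor filtered, with 1 library per pool.

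Testing was limited to the 13692 of 52459 genes that exceeded both 5 reads and 1 CPM in any library. Ages were compared with edgeR 4.0.16 (R 4.3.3), using TMM normalization, the quasi-likelihood test without covariate, and p-values adjusted by Benjamini-Hochberg across those 13692 genes (FDR 0.05). Replicate numbers did not pair animals. Alternatives were limma 3.58.1 (voom with sample quality weights), DESeq2 1.42.0, edgeR's likelihood ratio test, other scalings and filters, a replicate block, offsets for GC content and length (lowess, span 0.3), and leaving out each pool. The fits were tested on simulated data.

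The 10 genes and the lists of pathway and marker genes were chosen with earlier results of these data known. The text names all 10, every pathway gene with an FDR under 0.05 and, in each role, the tested gene of lowest p in each direction, except for an item that is not reported here. Positions, lengths and shared 50-nt stretches came from GENCODE vM21 (GRCm38), and 2 pathway genes were matched by an older symbol. Protein sequences were not used here.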

Additional observations from a re-analysis of the deposited data

How the results depend on the processing

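Of the 10 genes, 1 was called with TMM normalization, and also with voom, DESeq2, the likelihood ratio test, RLE factors, both other filters, TMM without mitochondrial genes and the replicate block. With offsets for GC content and length 0 were called, with total counts 10, and with a pool left out 0 to 2. Of the pathway genes, 3 were called, against 1 with DESeq2, 46 with total counts, 6 with the replicate block, 1 with GC and length offsets and 1 to 6 with a pool left out. Over all genes, 309 were called (223 higher, 86 lower), against 197 with DESeq2, 611 with the likelihood ratio test, 554 without a filter, 623 with the replicate block, 179 with GC and length offsets and 151 to 710 with a pool left out. Total counts gave 4650 calls (96 higher, 4554 lower) and moved the median over all genes to -0.50 (log2). Relative to that shift, Igf1r was at -0.56, Mtor at 0.03 and Rictor at 0.09. The log2 fold changes that changed sign were 0.0081 for Insr, 0.0214 for Irs2 and 0.0087 for Foxo1 with the offsets, and -0.47 for Mtor and -0.41 for Rictor with total counts. With a pool left out, Insr ranged from -0.11 to 0.0513, Irs2 from -0.53 to 0.34, Foxo1 from -0.23 to 0.14 and Mtor from -0.0257 to 0.0817, where the lone pool of an age was assumed to vary like the other age. The cause of these changes was not tested. The replicate block changed no call among the 10 genes, and pools of the same number did not deviate together (correlation over genes -0.00313). Among the 10 genes the error was largest for Irs1 (SE 0.45) and Irs2 (SE 0.23). Of the genes named with a fold change, Irs1, Igf2 and Sesn2 had under 50 reads in every library.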
